A study of Homo sapiens with 8 samples.

Results

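HL-60 cells given decitabine together with RG3039 were compared with HL-60 cells given the solvent DMSO. The genes are all those whose value averaged at least 10 over the 8 libraries of the study, 17534 of the 60240 in the table. HL-60 is a human promyelocytic leukaemia line, labelled wild type. Cells were seeded at 100000 per mL in 6-well plates and collected at 72 h. The combination group received decitabine in 3 daily additions of 100 nM, the first on day 0, and 1 addition of RG3039 at 2 µM on day 0; the DMSO group received neither drug. Each group has 2 libraries. A decitabine group and an RG3039 group, of 2 libraries each and with the same doses, complete the series of 8 and are used here for the spread and for comparison. Nothing in the labels says that the duplicates came from separate cultures, so p-values measure only the spread between these libraries, which may be technical.

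Decitabine is a deoxycytidine analogue that is phosphorylated in the cell, built into DNA and there traps the maintenance methyltransferase DNMT1, so that methylation is lost as cells divide. RG3039 is a quinazoline inhibitor of DCPS, the scavenger enzyme that hydrolyses the cap left over when messenger RNA has been degraded from its 3′ end. HL-60 cells carry an amplified MYC gene, lack functional p53, and can be driven by various agents towards granulocytes or monocytes. That maturation is known for falling MYC and ribosome synthesis and for rising genes of chemotaxis receptors and the oxidative burst.

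The values are the authors' normalised read counts per gene from 3′ tag libraries of polyadenylated RNA, without a unit of their own. The estimated depth was 20700000 to 40900000 reads per library. It was 40100000 and 21400000 in DMSO replicates 1 and 2, and 33500000 and 40900000 in combination replicates 1 and 2. All 14 defining markers of HL-60 stood at 100 or more in both groups. Of 33 markers of lymphoid, stromal, epithelial and endothelial cells, 12 were under 5 in all 4 libraries, and 7 of these (MS4A1, IGHM, JCHAIN, COL3A1, KRT19, KRT5 and CDH5) were at 0.

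The combination changed 4221 of the 17534 genes at an adjusted p under 0.05 (limma), which is 24.1% of those tested. Of these, 1999 were higher than in DMSO (11.4%) and 2222 lower (12.7%). These 2 shares are the background for each count of list members called against DMSO below. Both combination libraries lay above both DMSO libraries in 32.2% of all genes and below both in 30.6%, which is the background for any count of groups that do not overlap. At least 2-fold changes made up 1470 of the higher and 1150 of the lower calls. Among called genes the median size of the log2 change was 1.64 for those that rose and 1.02 for those that fell. Protein-coding genes were 80.1% of the higher, 94.4% of the lower and 73.9% of all tested genes. Long intergenic and antisense RNAs were 11.1%, 2.21% and 12.6%.

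The balance between directions moved with the scaling of the libraries. As deposited, 47.4% of calls were higher and the median log2 change of all genes was 0.04. With libraries scaled to equal totals 60.4% were higher and that median was 0.19, with upper-quartile scaling 57.0% and 0.15, and with quantile normalisation 49.1% and -0.04. Without combination replicate 1 the calls numbered 2133, without combination replicate 2 2391 and without DMSO replicate 2 2783. In all, 1656 genes (9.44%) remained called whichever of the 8 libraries was left out, 834 higher and 822 lower. Each gene given below with values as having risen or fallen against DMSO with the combination is among them unless said otherwise.

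**Figure D1:**
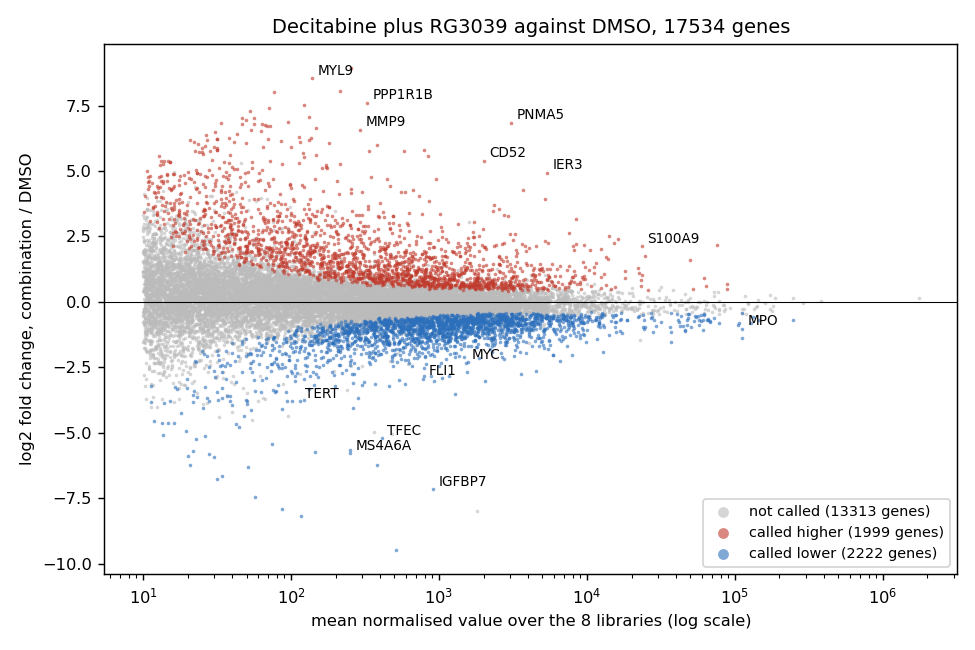
Log2 fold change of the combination against DMSO (vertical axis) over the mean normalised value of the 8 libraries (horizontal log axis), 1 point per gene tested. Of the 17534 genes, 1999 called higher are red, 2222 called lower are blue and the others grey. The fitted change of a gene listed at 0 in a whole group depends on the 1 added before taking logarithms.

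Large rises were measured in MMP9, CD52, GBP2, CES1, HVCN1, CYP1B1 and ADAM8, with no overlap between the groups. MMP9, a gelatinase stored in granules of neutrophils (on chromosome 20 between 46008908 and 46016561, ENSG00000100985.7; all coordinates are on GRCh38), stood at 10.6 and 7.55 in the DMSO libraries and at 941 and 963 with the combination. Its log2 change was 6.58 ± 0.33 (adjusted p = 5.86e-06). CD52, a glycoprotein anchored in the membrane of lymphocytes and monocytes (on chromosome 1 between 26317957 and 26320523, ENSG00000169442.9), went from 173 and 112 to 5279 and 6572, a change of 5.40 ± 0.24 (adjusted p = 4.61e-06). GBP2, an interferon-inducible GTPase (on chromosome 1 between 89106132 and 89150456, ENSG00000162645.13), went from 49.0 and 52.3 to 2288 and 2684, a change of 5.59 ± 0.26 (adjusted p = 4.61e-06). In all 3 genes the lowest combination library was many times the highest DMSO library. CES1, a carboxylesterase of liver and monocytes (on chromosome 16 between 55802851 and 55833337, ENSG00000198848.13), rose from 417 and 549 to 8659 and 10016 (4.28 ± 0.19). HVCN1, the voltage-gated proton channel that sustains the oxidative burst (on chromosome 12 between 110627841 and 110704950, ENSG00000122986.13), rose from 416 and 434 to 4769 and 5187 (3.55 ± 0.16). CYP1B1, a cytochrome P450 monooxygenase (on chromosome 2 between 38066973 and 38109902, ENSG00000138061.12), rose from 1805 and 2058 to 16106 and 18713 (3.17 ± 0.14). ADAM8, a surface metalloprotease of granulocytes and monocytes, rose from 439.6 and 361 to 5026 and 5297 (3.69 ± 0.17). None of these 4 genes had an adjusted p above 4.61e-06. In none of them did the groups approach each other.

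PPP1R1B and MYL9 were low in DMSO and rose. PPP1R1B, the gene of DARPP-32, an inhibitor of a protein phosphatase (on chromosome 17 between 39626740 and 39636626, ENSG00000131771.14), went from 2.28 and 6.06 to 953 and 913 (7.60 ± 0.40, adjusted p = 8.61e-06). MYL9, a regulatory light chain of non-muscle and smooth muscle myosin (on chromosome 20 between 36541484 and 36551447, ENSG00000101335.10), went from 0.757 and 0 to 432 and 558 (8.54 ± 0.54, adjusted p = 2.35e-05). Among the most abundant genes to rise were the calgranulins S100A9 and S100A8, calcium-binding proteins of mature phagocytes. S100A9 went from 8456 and 11215 to 38981 and 46194 (2.12 ± 0.16) and S100A8 from 10687 and 14266 to 37249 and 45555 (1.74 ± 0.16). The mitochondrial leucine transfer RNA gene MT-TL1 went from 28301 and 32697 to 116409 and 165320 (2.19 ± 0.18). It is annotated only from 3230 to 3304 on the mitochondrial genome. Whether these reads of polyadenylated RNA come from the mature transfer RNA was not tested. TKT, the transketolase of the pentose phosphate pathway, rose from 14238 and 13469 to 27922 and 31254 (1.09 ± 0.14). These 4 abundant genes had an adjusted p of at most 0.000615.

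**Figure D2:**
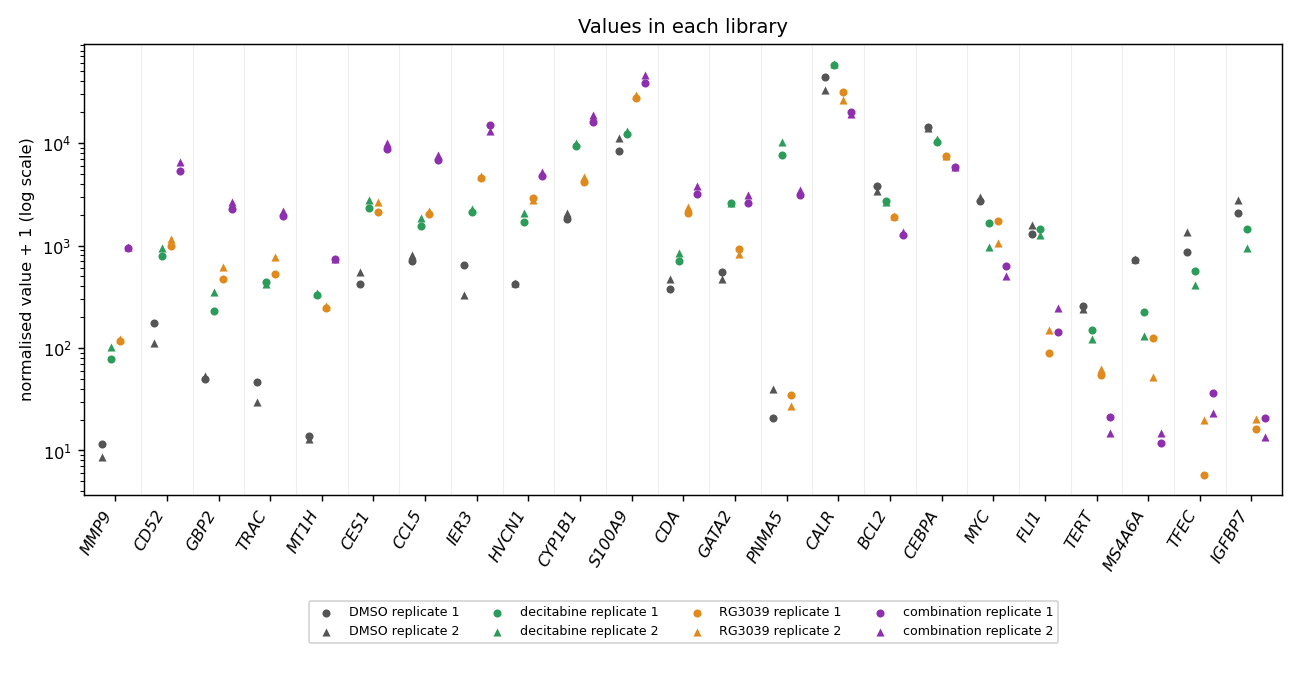
Normalised value plus 1 (vertical log axis) of named genes in each of the 8 libraries, coloured by group, with circles for replicate 1 and triangles for replicate 2. For MMP9 the combination libraries stand at 941 and 963 and the DMSO libraries at 10.6 and 7.55, and for IGFBP7 the order is turned around.

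Among the genes that fell furthest were IGFBP7, MS4A6A and TFEC. IGFBP7, a secreted binding protein of insulin-like growth factors (on chromosome 4 between 57030773 and 57110385, ENSG00000163453.11), stood at 2063 and 2788 in DMSO and at 19.6 and 12.6 with the combination, a log2 change of -7.16 ± 0.34 (adjusted p = 4.61e-06). MS4A6A, a membrane-spanning protein of monocytes and macrophages (on chromosome 11 between 60172014 and 60184666, ENSG00000110077.14), went from 715 and 739 to 10.8 and 13.8 (-5.78 ± 0.45, adjusted p = 6.64e-05). TFEC, a MiT transcription factor (on chromosome 7 between 115935148 and 116159896, ENSG00000105967.16), went from 858 and 1367 to 35.4 and 22.4 (-5.21 ± 0.55, adjusted p = 0.000248). No combination library of these 3 genes came near a DMSO library. OPN3, an opsin found outside the eye, fell from 529 and 387 to 30.0 and 23.0 (-4.06 ± 0.38). CACNA2D3, an auxiliary subunit of calcium channels, fell from 259 and 190.2 to 9.16 and 16.1 (-4.08 ± 0.48). TERT, the catalytic subunit of telomerase (on chromosome 5 between 1253147 and 1295069, ENSG00000164362.21), fell from 254 and 240.5 to 20.2 and 13.9 (-3.81 ± 0.36). FLI1, an ETS transcription factor of blood and endothelial cells (on chromosome 11 between 128686535 and 128813267, ENSG00000151702.17), fell from 1302 and 1585 to 142 and 246 (-2.93 ± 0.32). DEPTOR, an inhibitor of the kinase mTOR, fell from 149.8 and 78.5 to 2.50 and 4.21 (-4.68 ± 0.62). Adjusted p was at most 0.000837 in these 5 genes.

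A set of 62 genes was under 5 in both DMSO libraries and at 50 or more in both combination libraries, and all 62 were called. Since such a gene had to differ, that count is a description and no test. Of the 62, 41 were protein coding, 6 lay on the X chromosome and 21 were listed at 0 in both DMSO libraries. AKAP12, a scaffold protein of protein kinase A (on chromosome 6 between 151239999 and 151358557, ENSG00000131016.17), was listed at 0 throughout DMSO and at 239 and 273 when both drugs were given. TUBA3D, an alpha-tubulin of testis with near-identical copies, was at 0 in both and then at 169.8 and 166. VCX, a germ cell gene of the X chromosome with close copies, was at 0 in both and then at 164 and 103. OTP, a homeobox gene of the hypothalamus, stood at 0.637 and 0 and then at 175 and 319. KLHDC7B, a kelch repeat gene, stood at 0.760 and 3.03 and then at 273 and 361. The reverse set, at 50 or more in both DMSO libraries and under 5 in both combination libraries, held 12 genes, 6 of them protein coding.

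Cancer-testis and germline genes, which are normally silent outside the germ line under promoter methylation, rose where they were called. Of the 36 tested, 29 had a log2 change above 0, and the lowest change was -3.49. Of 80 on the list, these 36 passed the filter on low values. Among them 11 were called higher (30.6%, against 11.4% of all genes) and 0 lower (against 12.7%). The median log2 change of the 36 was 1.02, against 0.04 for all genes (0.99 without the 3 genes at 0 in a whole group). A gene silent in DMSO could pass that filter only where another group raised it, so the count does not describe the whole list. MAEL, a protein of the piRNA pathway (on chromosome 1 between 166975582 and 167022214, ENSG00000143194.13), rose from 13.3 and 7.98 to 247 and 249 (4.46 ± 0.42, adjusted p = 0.000166). TDRD9, a helicase of that pathway, went from 2.14 and 1.22 to 149 and 227 (6.13 ± 0.51). MAGEB2 went from 62.8 and 51.3 to 275 and 326 (2.38 ± 0.32), and STAG3, a cohesin subunit of meiosis, from 40.9 and 35.0 to 172 and 209.9 (2.30 ± 0.38). Outside that list the value of PNMA5, a paraneoplastic antigen gene (on chromosome X between 152988824 and 152994127, ENSG00000198883.12), increased from 19.7 and 39.2 to 3079 and 3511 (6.83 ± 0.32). Each of these 4 genes had an adjusted p of 0.00248 or less.

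The start regions of AKAP12 and MAEL are shown because these genes were low in DMSO and rose, and because decitabine lowers methylation at CG dinucleotides. The windows run from 250 bases before to 50 bases after the start, on GRCh38.p14 from RefSeq, with every CG in capitals. That of AKAP12, chr6:151239717-151240016 on the plus strand, holds 15 of them, and that of MAEL, chr1:166975332-166975631 on the plus strand, holds 60. The median over 11469 tested genes with a window in the table was 25. Methylation was not measured in these libraries. Windows were found for 68.1% of the genes called higher, which is too few to compare CG numbers between the called genes and the rest.
AKAP12: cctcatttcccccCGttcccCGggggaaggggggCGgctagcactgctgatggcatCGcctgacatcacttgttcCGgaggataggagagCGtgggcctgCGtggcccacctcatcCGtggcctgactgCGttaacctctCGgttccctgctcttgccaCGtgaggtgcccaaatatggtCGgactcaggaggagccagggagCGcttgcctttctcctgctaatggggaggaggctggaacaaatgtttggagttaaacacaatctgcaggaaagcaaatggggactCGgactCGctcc
MAEL: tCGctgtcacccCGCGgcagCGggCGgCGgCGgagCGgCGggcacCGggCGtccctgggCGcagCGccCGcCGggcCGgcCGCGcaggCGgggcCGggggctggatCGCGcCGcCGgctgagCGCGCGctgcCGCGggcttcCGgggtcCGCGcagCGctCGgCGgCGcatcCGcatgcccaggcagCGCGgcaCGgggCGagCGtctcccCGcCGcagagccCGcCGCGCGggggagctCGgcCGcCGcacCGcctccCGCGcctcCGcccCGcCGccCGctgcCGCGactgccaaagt

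Markers of monocyte and granulocyte maturation rose broadly. This list, like the others here, was chosen with earlier results of these data known, so its counts are a description and no test. Of 77 tested, 49 were called higher and 4 lower, with a median log2 change of 1.50, against 11.4% and 12.7% of all genes. Of the 49, 32 kept the call without each library, and 2 of the 4. Without DMSO replicate 2 the lower calls numbered 2. FCGR3B, the Fc receptor of neutrophils, went from 29.5 and 28.7 to 503 and 534 (4.11 ± 0.36). FPR1, the receptor for bacterial formyl peptides, went from 70.1 and 100.1 to 613 and 667 (2.92 ± 0.31). PADI4, which citrullinates histones in neutrophils, went from 336 and 387 to 1839.6 and 1873 (2.36 ± 0.16), and CD14, the monocyte co-receptor for lipopolysaccharide, from 141 and 148 to 651 and 826 (2.34 ± 0.24). These 4 genes had an adjusted p of at most 0.000256, and both groups of each stood apart. CCR2, the chemokine receptor of classical monocytes, fell from 457 and 451 to 142 and 156 (-1.60 ± 0.23, adjusted p = 0.00126). In bulk libraries a larger share of cells that express a gene and more RNA per cell cannot be told apart.

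Among primary granule and promyelocyte genes, those of eosinophil granules rose and several of neutrophil azurophil granules fell, a grouping made after the values were seen. Of 32 tested, 10 were called higher (31.3%, against 11.4% of all genes) and 7 lower (21.9%, against 12.7%). The list median of 0.12 was 0.079 without DMSO replicate 1 and 0.28 with quantile normalisation. Those that rose included the eosinophil granule genes RNASE2, RNASE3, PRG2 and EPX. RNASE2, the eosinophil-derived neurotoxin, went from 4421 and 7766 to 25523 and 30569 (2.25 ± 0.25). RNASE3, the eosinophil cationic protein, shares much of its sequence with RNASE2 and went from 532 and 583 to 2503 and 2796 (2.25 ± 0.18). PRG2, the major basic protein, went from 20683 and 23688 to 65472 and 67395 (1.59 ± 0.14), and EPX, the eosinophil peroxidase, from 393 and 666 to 2108 and 2707 (2.22 ± 0.26). The main azurophil granule genes that fell were MPO, CTSG and DEFA1. MPO, the myeloperoxidase, went from 130999 and 165580.00 to 69218 and 74639 (-1.03 ± 0.18). CTSG, the serine protease cathepsin G, went from 4468 and 3016 to 1285 and 1259 (-1.53 ± 0.21), and DEFA1, a defensin with near-identical copies, from 12382 and 16286 to 3253 and 3666 (-2.04 ± 0.16). All 7 had an adjusted p of at most 0.00290. DEFA4, another azurophil granule defensin, went the other way, from 344 and 279 to 578 and 661 (0.99 ± 0.19, adjusted p = 0.00581), a call kept without 7 of the 8 libraries. The elastase gene ELANE stood at 12161 and 13520.00 and 7727 and 10822 and did not pass the test (adjusted p = 0.0649).

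Transcription factors and receptors of progenitor cells went both ways. Of 36 tested members of the stem and progenitor list, 6 were called higher and 9 lower, 16.7% and 25% against 11.4% and 12.7% of all genes. The 9 became 4 without DMSO replicate 1, without combination replicate 2 or without the mean-variance trend of the limma fit. The list median of 0.28 was 0.45 without DMSO replicate 1 and 0.13 with quantile normalisation, and turned to -0.18 without DMSO replicate 2. CEBPA, the factor that starts the granulocyte programme, fell from 14374 and 14108 to 5852 and 5884 (-1.28 ± 0.12, adjusted p = 0.000157). CEBPE, which acts later in that programme, rose from 2368 and 2700.4 to 6514 and 7476 (1.46 ± 0.17, adjusted p = 0.000400). GATA2, a factor of stem cells, mast cells and eosinophils, rose from 555 and 466 to 2619 and 3096 (2.48 ± 0.17, adjusted p = 3.25e-05). Both receptor kinase genes, FLT3 and KIT, fell, FLT3 from 281 and 362 to 53.4 and 45.9 (-2.66 ± 0.31) and KIT from 647 and 619 to 240.01 and 228 (-1.43 ± 0.21). SPI1, which encodes PU.1, stood at 793 and 883 in DMSO and 627 and 864 with the combination, within overlapping ranges (adjusted p = 0.554). Of 22 erythroid and megakaryocyte markers 4 rose (18.2%) and 1 fell (4.55%), against 11.4% and 12.7% of all genes. The median of these markers, 0.61, became 1.59 without DMSO replicate 1 and -0.22 without DMSO replicate 2. THBS1, the thrombospondin of platelet granules, rose from 14.2 and 19.4 to 348 and 385 (4.38 ± 0.42).

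NF-kB feedback and survival genes rose in one direction, 65.8% called higher and 0% lower, against 11.4% and 12.7% of all genes. Of 38 tested, 25 were called higher and 0 lower, with a median of 1.08 (1.06 without the 1 gene at 0 in a whole group), and 17 kept the call without each library. IER3, an early response gene that limits cell death (on chromosome 6 between 30743199 and 30744554, ENSG00000137331.12), went from 649.99 and 325 to 15136 and 13235 (4.94 ± 0.27, adjusted p = 9.35e-06). CCL5, a chemokine gene (on chromosome 17 between 35871491 and 35880793, ENSG00000271503.6), went from 699 and 800.02 to 6815 and 7629 (3.27 ± 0.16, adjusted p = 5.09e-06). CCL3, another chemokine, went from 9.13 and 3.04 to 204 and 287 (5.25 ± 0.53). IL1RN, the interleukin-1 receptor antagonist, went from 311 and 403 to 2283 and 2353 (2.71 ± 0.19), and PTGS2, the inducible cyclooxygenase, from 64.2 and 55.8 to 630.1 and 579.9 (3.31 ± 0.29). NFKB2, a subunit of the pathway itself, went from 54.0 and 56.8 to 395 and 452 (2.91 ± 0.26). TNF, the cytokine, rose less, from 577 and 652 to 1112 and 1283 (0.96 ± 0.17). For these 5 genes the adjusted p did not exceed 0.00335.

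Higher calls made up 51.5% of AP-1 and immediate-early, 29.03% of integrin and adhesion and 41.03% of actomyosin genes, against 11.4% of all genes. The shares called lower, 6.06%, 3.23% and 10.3%, were under the 12.7% of all genes. Of 33 tested AP-1 and immediate-early genes 17 were called higher and 2 lower, with a median of 1.29. The 17 became 9 without combination replicate 1 and 10 without combination replicate 2 or with a minimum mean of 50. The 2 became 1 without DMSO replicate 1, 1 without RG3039 replicate 2, and 0 without DMSO replicate 2 or either combination library. JUN, an AP-1 subunit, rose from 356 and 229 to 1029.6 and 965 (1.80 ± 0.23), EGR1, a zinc finger factor of monocyte maturation, from 128 and 133 to 845 and 995 (2.81 ± 0.23), and DUSP4, a phosphatase of MAP kinases, from 51.0 and 38.4 to 273 and 338 (2.75 ± 0.33). Of 31 leukocyte integrin and adhesion genes, 9 rose (15 with equal totals) and 1 fell, a single call that was lost without DMSO replicate 2 or either combination library and became 2 without DMSO replicate 1. PECAM1, an adhesion molecule of leukocytes, platelets and endothelium, went from 608 and 582 to 3085 and 3459.9 (2.45 ± 0.20), ITGAX, the CD11c integrin chain, from 81.9 and 56.7 to 651 and 501 (3.05 ± 0.28), and ITGB2, the CD18 chain, from 16585 and 12822 to 31623 and 27684 (1.02 ± 0.15). Of 39 actomyosin genes, 16 rose and 4 fell (10 and 1 without combination replicate 1, and 1 lower without combination replicate 2). Apart from MYL9, CAPG, which caps actin filaments, went from 1474 and 1848 to 6771 and 7569 (2.12 ± 0.17) and TPM4, a tropomyosin, from 6259.7 and 7196 to 18476 and 19294 (1.49 ± 0.15). All 8 genes named in these sentences with values had an adjusted p of at most 0.00162.

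**Figure D3:**
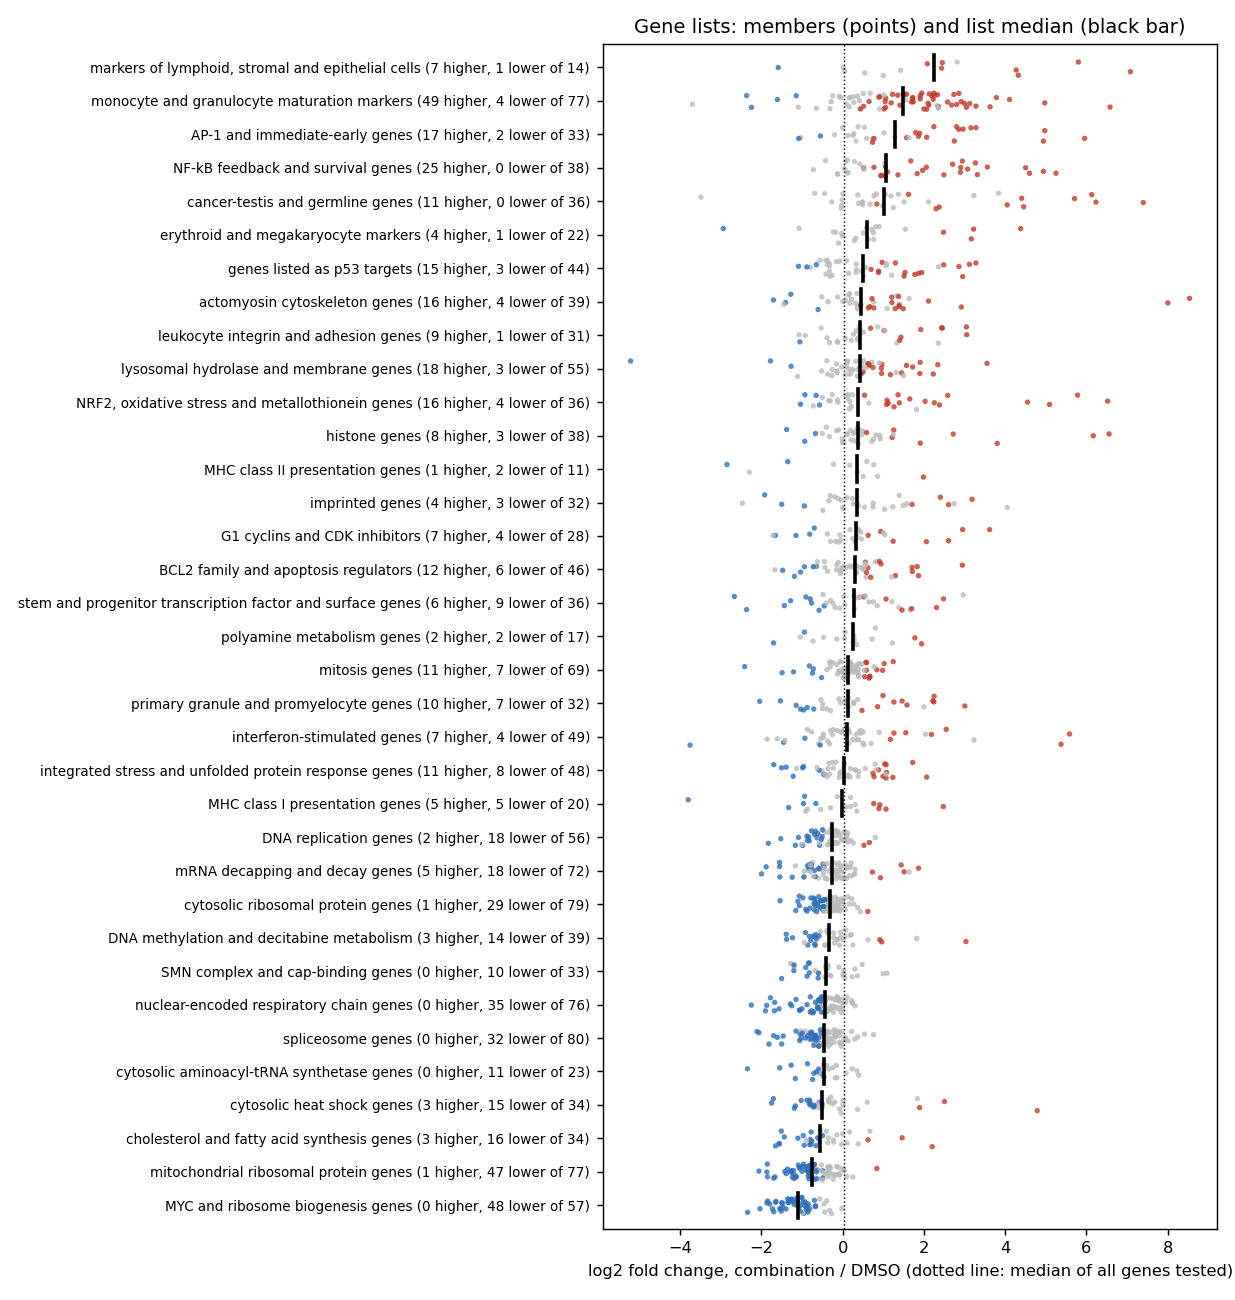
Log2 fold change of the combination against DMSO (horizontal axis) for the tested members of the gene lists, with the list median as a black bar, fitted changes of genes at 0 in a group depending on the pseudocount, and the median of all genes, 0.04, as a dotted line. Red points were called higher, blue points lower and grey points not called, and vertical scatter within a row has no meaning. The ribosome biogenesis list lies lowest, at -1.10, and the myeloid maturation list at 1.50 near the top.

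MYC and the genes of ribosome biogenesis fell in large part. Of 57 tested, 48 were called lower and 0 higher, with a median of -1.10, against 12.7% lower among all genes, and 39 kept the call without each library. MYC itself fell from 2716 and 2954 to 628 and 500.02 (-2.34 ± 0.29, adjusted p = 0.000626). NOP16, a nucleolar assembly factor of the large subunit, fell from 2372 and 2218 to 657 and 767 (-1.69 ± 0.16). EBNA1BP2, another nucleolar factor of the large subunit (on chromosome 1 between 43164175 and 43270936, ENSG00000117395.12), fell from 5010.4 and 6049 to 1849 and 2053 (-1.50 ± 0.15). NOP14, a factor of the small subunit, fell from 7099.6 and 7132 to 3073 and 2998 (-1.23 ± 0.12). GNL3, the nucleostemin GTPase, fell from 8564 and 12173 to 2761 and 2258 (-2.03 ± 0.24), and POLR1C, a subunit shared by RNA polymerases I and III, from 1003 and 1293 to 267 and 366 (-1.86 ± 0.22). The importin gene IPO4 fell from 1352 and 1154 to 590.3 and 409 (-1.34 ± 0.21, adjusted p = 0.00197). The abundant nucleolar proteins moved less: NPM1, nucleophosmin, went from 80065 and 79846 to 48169 and 50737 (-0.69 ± 0.12) and NCL, nucleolin, from 65407 and 83437 to 37226 and 42401 (-0.89 ± 0.15). The adjusted p of NOP16, EBNA1BP2, NOP14, GNL3, POLR1C, NPM1 and NCL was at most 0.00308.

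The hexamer CACGTG, the E-box that MYC with its partner MAX is known to bind, was searched on both strands, which for this palindrome are the same, in windows from 250 bases before to 50 bases after the start (RefSeq, GRCh38.p14). A window was found for 48 of the 57 genes (84.2%), and 19 of them (39.6%) hold the hexamer. It is held by 7.43% of the 27305 windows in the table and by 10.1% of those of tested genes. Windows were found for 65.4% of the tested genes. Of the genes called lower 81.3% had a window, and 13.8% of these windows hold the hexamer. The coverage differs between these sets, so the shares are a description and no test. Within the list, 16 of the 19 genes with it were called lower, with a median log2 change of -1.25, and 24 of the 29 without it, with a median of -1.05. The windows of EBNA1BP2, chr1:43172521-43172820 on the minus strand, and of IPO4, chr14:24188767-24189066 on the minus strand, are shown as examples, with the hexamer in capitals. It lies at -237 and at -29 from the start. A match describes the letters and shows no binding.
EBNA1BP2: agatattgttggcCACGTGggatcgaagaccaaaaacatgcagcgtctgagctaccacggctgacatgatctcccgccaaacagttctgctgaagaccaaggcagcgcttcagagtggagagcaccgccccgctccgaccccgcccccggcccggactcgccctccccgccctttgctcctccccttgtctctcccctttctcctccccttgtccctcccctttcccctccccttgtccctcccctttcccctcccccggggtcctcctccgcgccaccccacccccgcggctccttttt
IPO4: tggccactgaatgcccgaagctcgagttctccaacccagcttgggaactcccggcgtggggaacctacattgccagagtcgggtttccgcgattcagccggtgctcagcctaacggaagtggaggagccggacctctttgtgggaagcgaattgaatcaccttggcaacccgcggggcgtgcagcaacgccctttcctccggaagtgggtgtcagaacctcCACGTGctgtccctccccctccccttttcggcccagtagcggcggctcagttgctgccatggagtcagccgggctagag

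Genes of the translation apparatus were lower with smaller changes. Called lower were 36.7% of the cytosolic and 61.0% of the mitochondrial ribosomal protein genes and 47.8% of the synthetase genes, against 12.7% of all genes. Called higher were 1.27%, 1.30% and 0%, against 11.4%. Of 79 cytosolic ribosomal protein genes 29 fell and 1 rose, with a median of -0.31. The count rested on the scaling: with quantile normalisation 16 fell and 6 rose, and the median was -0.079. Without the mean-variance trend 9 fell. The 29 became 7 without combination replicate 1, 12 without combination replicate 2 and 18 without DMSO replicate 2, and the single gene that rose, RPL12, lost its call without either combination library (2 rose without DMSO replicate 1). Of 77 mitochondrial ribosomal protein genes 47 fell and 1 rose, with a median of -0.74 (23 lower without combination replicate 1, 31 without combination replicate 2 and 30 without the trend). Of 23 cytosolic aminoacyl-tRNA synthetase genes 11 fell and 0 rose, with a median of -0.47 (5 to 6 without either combination library or DMSO replicate 2, and 5 without the trend). RPL23 fell from 48281 and 57023 to 23313 and 23992 (-1.15 ± 0.16) and RPS2 from 141933 and 169298 to 80479 and 88839 (-0.87 ± 0.14), proteins of the large and the small subunit. MRPL3 of the mitochondrial large subunit fell from 3495 and 4092 to 1099.9 and 1298 (-1.66 ± 0.17). AIMP2, a scaffold of the synthetase complex, fell from 1601 and 2224 to 443 and 312 (-2.34 ± 0.27), and LARS1, the leucyl-tRNA synthetase, from 11566 and 11419 to 4921 and 4642 (-1.27 ± 0.13). None of these 5 genes had an adjusted p above 0.00202. Ribosomal protein genes have many processed pseudogenes, and reads shared with these could be assigned either way.

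Of 76 nuclear-encoded genes of the respiratory chain 35 were called lower, 46.1% against 12.7% of all genes, and 0 higher, with a median of -0.44. With equal totals or quantile normalisation 1 was higher. The 35 became 11 without the mean-variance trend, 13 without combination replicate 1, 14 without combination replicate 2 and 20 without DMSO replicate 2. COX7B, a small subunit of cytochrome oxidase, fell from 12271 and 10625 to 2804 and 2068 (-2.25 ± 0.22), and ATP5MC3, the proteolipid of ATP synthase, from 20803 and 25241 to 6556 and 5769.7 (-1.90 ± 0.18). Of 34 cytosolic heat shock genes, a list that also holds mitochondrial chaperones, 15 fell and 3 rose, with a median of -0.51. The 15 became 8 without the trend, 7 without combination replicate 1 and 9 without DMSO replicate 2, and the 3 became 1 without either combination library. HSPE1 and HSPD1, the mitochondrial chaperonin pair, fell from 10794 and 12968 to 3715 and 3554 (-1.70 ± 0.16) and from 37772 and 41874 to 18132 and 17502 (-1.16 ± 0.16). CCT2, of the cytosolic chaperonin, fell from 7797 and 8341 to 2312 and 2497 (-1.75 ± 0.23). Adjusted p was at most 0.000999 in these 5 genes. Of the heat shock list 44.1% fell and 8.82% rose, against 12.7% and 11.4% of all genes.

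RNA processing genes, the machinery around the target of RG3039, fell in part. Called lower were 25% of the decapping and decay, 40% of the spliceosome and 30.3% of the SMN and cap-binding genes, against 12.7% of all genes. Called higher were 6.94%, 0% and 0%, against 11.4%. DCPS stood at 960.2 and 657 in DMSO and at 543 and 416 with the combination, a log2 difference of -0.74 ± 0.27 that did not pass the test (adjusted p = 0.0740), although the groups did not overlap. Of 72 mRNA decapping and decay genes 18 fell and 5 rose, with a median of -0.27 (with equal totals 11 fell and the median was -0.12, and without the mean-variance trend 7 fell). The 18 became 7 without combination replicate 1, 8 without combination replicate 2 and 7 without DMSO replicate 2, and the 5 became 3 without combination replicate 1. EXOSC5, of the RNA exosome that feeds DCPS, fell from 1518 and 1660.02 to 614 and 737 (-1.24 ± 0.16), whereas the deadenylase CNOT6 rose from 1175 and 1365 to 3192 and 3709 (1.44 ± 0.16). BTG1, an antiproliferative partner of the deadenylases, rose from 5030.01 and 4739.8 to 13757 and 14124 (1.51 ± 0.14). Of 80 spliceosome genes 32 fell and 0 rose, with a median of -0.45 (16 and 17 lower without combination replicates 2 and 1, 19 without DMSO replicate 2 and 13 without the trend, and 3 higher with equal totals). U2AF1, which recognises the 3′ splice site, fell from 7945 and 8470.04 to 2639 and 3361 (-1.46 ± 0.18). It has a near-identical copy in the annotation, so its level is uncertain. SRSF7, a splicing regulator, fell from 8233 and 7738 to 2810.2 and 2842 (-1.50 ± 0.22). Of 33 SMN complex and cap-binding genes 10 fell and 0 rose, with a median of -0.41 (6 without either combination library or the trend and 5 without DMSO replicate 2, and a median of -0.26 with equal totals). GEMIN5, which selects small nuclear RNAs for the SMN complex, fell from 1638 and 1969.9 to 845 and 728 (-1.19 ± 0.17). These 6 genes had an adjusted p of at most 0.00135.

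Decitabine's target and the enzymes that handle the drug changed unequally. CDA, a deaminase of cytidine and of decitabine, which it inactivates (on chromosome 1 between 20588948 and 20618908, ENSG00000158825.6), rose from 379 and 471 to 3155 and 3828 (3.04 ± 0.19, adjusted p = 2.06e-05). DCK, the kinase that activates it (on chromosome 4 between 70992538 and 71030914, ENSG00000156136.10), fell from 511 and 506 to 309.8 and 342 (-0.64 ± 0.20, adjusted p = 0.0468), a call lost under each other scaling (adjusted p 0.0529 to 0.115) and without combination replicate 1 among others. DNMT1 (on chromosome 19 between 10133345 and 10231286, ENSG00000130816.16) fell from 13815 and 11548 to 4843 and 5966 (-1.23 ± 0.22, adjusted p = 0.00370). DCTPP1, a pyrophosphatase that clears deoxycytidine triphosphates, fell from 2721 and 3230.1 to 1101 and 1166 (-1.39 ± 0.16). TET2, which oxidises methylcytosine, rose from 1983 and 2339 to 3800.4 and 4651 (0.96 ± 0.16), both at an adjusted p of at most 0.00262. The de novo methyltransferase DNMT3A stood at 496 and 415 and 490.4 and 456 and DNMT3B at 107 and 78.5 and 107 and 80.7, with overlapping groups. Of 39 genes of DNA methylation and decitabine metabolism 14 fell (35.9%, against 12.7% of all genes) and 3 rose (7.69%, against 11.4%). Their median was -0.35 (-0.20 with equal totals). The 14 became 6 without combination replicate 1 and without the mean-variance trend, 7 without combination replicate 2 and 8 without DMSO replicate 2.

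Genes of the cell cycle are given by phase. Of 56 DNA replication genes 18 fell (32.1%, against 12.7% of all genes) and 2 rose (3.57%, against 11.4%). Their median was -0.26 (-0.12 with equal totals). The 18 became 6 without the mean-variance trend, 5 without combination replicate 1, 10 without combination replicate 2 and 11 without DMSO replicate 1, and the 2 became 1 without DMSO replicate 1 and 0 without DMSO replicate 2 or either combination library. TIMELESS, a replication fork protein, fell from 2384 and 2346 to 1145 and 975 (-1.16 ± 0.16). Of 69 mitosis genes 11 rose and 7 fell, 15.9% and 10.1%, shares near the 11.4% and 12.7% of all genes. Their median of 0.14 was 0.064 without DMSO replicate 1 and 0.29 with equal totals. With equal totals 17 rose and 4 fell, with quantile normalisation 17 rose, and without the trend 3 rose and 4 fell. The 11 became 1 without combination replicate 1, 4 without combination replicate 2 and 7 without DMSO replicate 1, and the 7 became 4 without DMSO replicate 2 or either combination library. CDC25C, the phosphatase that starts mitosis, rose from 350.2 and 308 to 818 and 745 (1.25 ± 0.18), while ESPL1, the separase, fell from 422 and 469 to 81.7 and 84.1 (-2.41 ± 0.38). Of 28 G1 cyclins and CDK inhibitors 7 rose (4 without combination replicate 2) and 4 fell. CDKN1A, the inhibitor p21 (on chromosome 6 between 36676460 and 36687339, ENSG00000124762.14), rose from 54.8 and 47.9 to 414 and 394 (2.96 ± 0.36, adjusted p = 0.000569). CCND3, cyclin D3, rose from 1701 and 1607 to 6614 and 7224 (2.06 ± 0.18), and CDK6, its kinase partner, fell from 10329 and 14503 to 4866 and 6274 (-1.15 ± 0.19). These 5 genes beside CDKN1A had an adjusted p of at most 0.00238. Of the G1 list 25% rose, against 11.4% of all genes, and 14.3% fell, near the 12.7% of all genes.

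Of 44 genes listed as p53 targets, in a line without functional p53, 15 were called higher (34.1%, against 11.4% of all genes) and 3 lower (6.82%, against 12.7%, and 1 gene without combination replicate 1). Their median was 0.49, and 0.31 without combination replicate 1. SAT1, which acetylates polyamines, rose from 1504 and 2045 to 6350.3 and 7188 (1.95 ± 0.17), TP53I11 from 260.4 and 288 to 1904 and 2101 (2.86 ± 0.18) and NINJ1, a protein of plasma membrane rupture, from 808 and 818 to 2443 and 3189 (1.78 ± 0.17). Of 46 apoptosis regulators 12 rose (7 without either combination library) and 6 fell (3 without DMSO replicate 2 or combination replicate 1), 26.1% and 13.0%, the second close to the 12.7% of all genes. Their median of 0.32 was 0.10 without DMSO replicate 1. BCL2, which blocks apoptosis, fell from 3825 and 3432 to 1266 and 1343 (-1.47 ± 0.14). BCL2A1, which blocks it as well, rose from 315 and 382 to 1161 and 1325 (1.84 ± 0.19), and BBC3, the pro-apoptotic PUMA, rose from 612 and 561 to 1494 and 1398 (1.30 ± 0.17). Of 17 polyamine genes 2 rose (SAT1 and the spermine oxidase SMOX) and 2 fell, the synthesis genes ODC1 and SRM (more without DMSO replicate 1). Each count is 11.8% of the list, near the 11.4% and 12.7% of all genes called higher and lower. ODC1, ornithine decarboxylase, went from 3757 and 2905 to 942 and 1101 (-1.70 ± 0.22). The adjusted p of the 7 genes given with values was at most 0.000808.

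Metallothioneins, small proteins that bind zinc and copper, rose with the exception of MT1E. Of 36 genes on the list of oxidative stress and metal genes 16 rose and 4 fell, with a median of 0.39 (0.60 without DMSO replicate 2), and the 4 became 1 without DMSO replicate 2, either combination library or the mean-variance trend. Of this list 44.4% rose, against 11.4% of all genes, and 11.1% fell, near the 12.7% of all genes. MT1H (on chromosome 16 between 56669814 and 56671129, ENSG00000205358.4) went from 12.9 and 12.1 to 736 and 746 (5.78 ± 0.25, adjusted p = 4.61e-06). MT2A went from 4402 and 5898 to 24247 and 29226 (2.39 ± 0.17), MT1G from 659 and 907 to 4177 and 5174 (2.59 ± 0.18) and MT1F from 307 and 286 to 1246 and 1616 (2.26 ± 0.19), all at an adjusted p of at most 8.25e-05. MT1E stood at 1127 and 1952 in DMSO and 1364 and 2056 with the combination, with overlapping groups (adjusted p = 0.715). The MT1 genes are close copies of one another on chromosome 16, so reads could be shared between them. HMOX1, the inducible haem oxygenase, went from 3.03 and 1.51 to 97.4 and 119 (5.09 ± 0.57), and FTH1, the ferritin heavy chain, from 8208 and 6437 to 23786 and 22009 (1.65 ± 0.15), both at an adjusted p of at most 0.000351. The core of the metal response element, TGCGCNC, to which the zinc-sensing factor MTF1 is known to bind, was searched on both strands. The start window of MT1H, chr16:56669564-56669863 on the plus strand (RefSeq, GRCh38.p14), holds 4 copies, shown in capitals because MT1H had among the smallest p of the comparison. The core is held by 19.97% of the 27305 windows in the table and by 30.1% of those of the genes tested. A window was found for 3 of 8 tested metallothionein genes, too few to describe the family.
MT1H: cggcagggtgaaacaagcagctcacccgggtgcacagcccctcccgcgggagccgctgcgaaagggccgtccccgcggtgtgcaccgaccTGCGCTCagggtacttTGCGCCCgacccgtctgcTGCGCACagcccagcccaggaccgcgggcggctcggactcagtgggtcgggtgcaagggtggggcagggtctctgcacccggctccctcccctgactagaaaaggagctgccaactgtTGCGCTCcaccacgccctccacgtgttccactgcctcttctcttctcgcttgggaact

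Lipid, lysosome and stress genes were mixed. Of the lipid synthesis list 8.82% rose and 47.1% fell, of the lysosome list 32.7% and 5.45%, and of the stress list 22.9% and 16.7%. Among all genes 11.4% rose and 12.7% fell. Of 34 cholesterol and fatty acid synthesis genes 16 fell and 3 rose, with a median of -0.56 (8 and 9 lower without combination replicates 1 and 2, and 8 without the trend). FASN, the fatty acid synthase, fell from 5350.4 and 5337 to 2079 and 1882 (-1.43 ± 0.13), SCD, the stearoyl-CoA desaturase, from 4281 and 4183 to 1544 and 1347 (-1.55 ± 0.18), and DHCR7, of the last step of cholesterol synthesis, from 1756 and 1756 to 567 and 673 (-1.51 ± 0.18). Of 55 lysosome genes 18 rose and 3 fell, with a median of 0.42 (9 higher without combination replicate 1, 11 without combination replicate 2 or DMSO replicate 2, and 10 without the mean-variance trend). GAA, the lysosomal alpha-glucosidase, rose from 14.7 and 23.9 to 261 and 205 (3.55 ± 0.38), and CTSD, the protease cathepsin D, from 7063 and 6620.5 to 24454 and 20925 (1.73 ± 0.18). Of 48 genes of the integrated stress and unfolded protein responses 11 rose and 8 fell (5 with equal totals, upper-quartile scaling or no mean-variance trend), with a median of 0.04 that turned to -0.02 without combination replicate 1. The 11 became 7 without either combination library, and the 8 became 5 without either DMSO library or combination replicate 1 and 4 without combination replicate 2. ATF5, a factor of the integrated stress response, rose from 2590.2 and 2391 to 4876 and 5626 (1.07 ± 0.14), and XBP1, of the unfolded protein response, fell from 3525 and 4248 to 1482 and 1476 (-1.39 ± 0.17). These 7 genes had an adjusted p of at most 0.000660.

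Antigen presentation and interferon genes went both ways. Of the MHC class I list 25% rose and 25% fell, and of the class II list 9.09% and 18.2%. The class II shares are near the 11.4% and 12.7% of all genes. HLA-E, a non-classical class I heavy chain, rose from 3065 and 3625 to 6163 and 6433 (0.92 ± 0.15), and TAP1, of the peptide transporter, from 355 and 358 to 689.9 and 814 (1.07 ± 0.18). Of 20 MHC class I genes 5 rose (3 without combination replicate 2) and 5 fell (3 without either DMSO library or combination replicate 1, and 2 without combination replicate 2). Their median of -0.02 became 0.12 with equal totals, 0.08 with upper-quartile scaling and 0.16 with quantile normalisation, the one list whose median changed sign with the scaling. Of 11 MHC class II genes 1 rose and 2 fell, HLA-DRA from 202 and 312 to 51.6 and 22.5 (-2.84 ± 0.49) and the invariant chain CD74 from 1163 and 1607 to 568 and 506 (-1.35 ± 0.20). The gene that rose was IFI30, a lysosomal thiol reductase, from 1364 and 1436 to 5018 and 6168 (1.99 ± 0.15), and without DMSO replicate 2 there were 2 such calls. The class II median was 0.36, and -0.01 without DMSO replicate 1. Of 49 interferon-stimulated genes 7 rose (11 with equal totals) and 4 fell (2 without DMSO replicate 2 or combination replicate 1), with a median of 0.12 (0.10 without the 1 gene at 0 in a whole group) that became -0.01 without combination replicate 2. The share of them that rose was 14.3% and the share that fell 8.16%, against 11.4% and 12.7% of all genes. The adjusted p of HLA-E, TAP1, HLA-DRA, CD74 and IFI30 was at most 0.00293.

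Of 38 histone genes 8 rose and 3 fell (1 without combination replicate 2), with a median of 0.37 (0.34 without the 2 genes at 0 in a whole group). H2BC21, a core histone gene, went from 98.4 and 70.9 to 557 and 558 (2.72 ± 0.28). H1-1, a replication-dependent linker histone, was listed at 0 throughout DMSO and at 91.6 and 94.8 under the combination. Polyadenylated libraries hold few replication-dependent histone transcripts, and these genes have close copies. Of the histone list 21.1% rose and 7.89% fell, against 11.4% and 12.7% of all genes. Of 32 genes listed as imprinted 4 rose (7 without DMSO replicate 1) and 3 fell (1 without DMSO replicate 2), 12.5% and 9.38%, near the 11.4% and 12.7% of all genes. Their median of 0.36 was 0.14 without DMSO replicate 2 and 0.024 with quantile normalisation. IGF2R, the mannose 6-phosphate receptor, rose from 1430.3 and 1539 to 4769.8 and 4938 (1.71 ± 0.13), and PHLDA2 from 77.2 and 28.7 to 432 and 444 (3.19 ± 0.42). Whether the listed genes are imprinted in HL-60 was not tested. The adjusted p of H2BC21, IGF2R and PHLDA2 was at most 0.000795.

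Markers of other cell types moved with the treatment and are given beside the groups above. Of 33 such markers 14 passed the filter, 7 rose (4 without combination replicate 2) and 1 fell, a call lost without DMSO replicate 2 or combination replicate 1. These are 50% and 7.14% of the 14, against 11.4% and 12.7% of all genes. A marker low under DMSO could pass the filter through the group where it was high, so these counts do not describe the whole list. Summed over the list the level was 2761 and 2627 under DMSO, 3676 and 3963 under decitabine, 4482 and 4743 under RG3039 and 8585 and 9243 under both drugs. The genes that rose were CD3D, CD3E, TRAC, CD79A, GNLY, KRT18 and PECAM1, and NKG7 was the one that fell. When 1 library was left out, not every call of a gene that rose was kept. Of the 7, 3 kept the call in each case, TRAC, GNLY and PECAM1. The calls of CD3D, CD3E, CD79A and KRT18 were each lost without at least 1 library. TRAC, the constant segment of the T cell receptor alpha chain (on chromosome 14 between 22547506 and 22552154, ENSG00000277734.8), went from 45.4 and 28.7 to 1963 and 2183 (5.80 ± 0.27, adjusted p = 4.61e-06). GNLY, the granulysin of killer lymphocytes, went from 4.53 and 0 to 283 and 356 (7.08 ± 0.72, adjusted p = 0.000217). CD3E went from 3.03 and 1.51 to 41.6 and 94.1, and its call was lost without combination replicate 2. Of the 33 markers MS4A1, IGHM, JCHAIN, COL3A1, KRT19, KRT5 and CDH5 were at 0 in every DMSO and combination library. Other markers of the same cell classes were not: CD79A of B cells stood at 25.7 and 25.7 under DMSO and 117 and 108 under both drugs. KRT18 of epithelia stood at 297 and 67.9 under DMSO and at 919 and 653 under both drugs. PECAM1, of endothelium and also of leukocytes, stood at 608 and 582 under DMSO and at 3085 and 3460 under both drugs. COL1A1 of fibroblasts stood at 65.8 and 40.3 under DMSO and 51.0 and 56.0 under both drugs, in overlapping ranges. Whether such transcripts have a part in the other changes was not tested.

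The combination was then set beside each drug alone. These comparisons share the combination libraries with the one above, so their agreement with it is no separate support. Against decitabine alone 1286 genes were called, 7.33% of those tested, 691 higher (3.94%) and 595 lower with the combination (3.39%). Against RG3039 alone 399 were called, 2.28%, 261 higher (1.49%) and 138 lower (0.787%). The second count fell to 21 without combination replicate 1, 34 without combination replicate 2, 59 without RG3039 replicate 1 and 177 without RG3039 replicate 2. It was also 255 and 213 without decitabine replicates 1 and 2. The first fell to 305 and 308 without combination replicates 1 and 2, and to 398 and 576 without decitabine replicates 1 and 2. Against DMSO, decitabine alone gave 376 calls and RG3039 alone 1424, where the combination gave 4221.

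Several leading genes stood higher with both drugs than with either. Of the 1999 genes called higher against DMSO, 95 were also called higher against each single drug. Of the 2222 called lower, 80 were also called lower against each single drug. MMP9 was at 76.9 and 102 with decitabine and 117 and 121 with RG3039, and the combination exceeded them by 3.41 ± 0.33 (adjusted p = 0.00103) and 2.99 ± 0.33 (adjusted p = 0.00384) on the log2 scale. CD52 was at 787 and 939 under decitabine and at 979.5 and 1167 under RG3039, with differences of 2.77 ± 0.24 and 2.46 ± 0.24. MYL9 was at 31.0 and 30.1 under decitabine and at 26.9 and 24.7 under RG3039, with differences of 3.96 ± 0.54 and 4.20 ± 0.54. CCL5 was at 1553 and 1859 under decitabine and at 2041 and 2177 under RG3039, with differences of 2.08 ± 0.16 and 1.77 ± 0.16, and IER3 at 2130.4 and 2289 under decitabine and at 4606 and 4824 under RG3039, with differences of 2.68 ± 0.27 and 1.59 ± 0.27. In these 5 genes both single-drug groups lay between DMSO and the combination, and the adjusted p of each difference was at most 0.00378 against decitabine and 0.0201 against RG3039. For CD52 and CCL5 both calls held whichever library was left out, and for MMP9 and IER3 those against decitabine did. Against RG3039, MMP9 lost its call without either combination library (adjusted p up to 0.0865), MYL9 without either combination library or RG3039 replicate 1 (up to 0.110), and IER3 without either combination or RG3039 library (up to 0.185). Against decitabine, MYL9 lost it without combination replicate 2 (0.0648). Whether the sum of the single changes differs from the change with both drugs was not tested here.

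Other genes stood closer to one single drug than to the other. PNMA5 stood at 7735 and 10197 with decitabine and 33.6 and 26.3 with RG3039, so that the combination lay below decitabine (log2 difference -1.43 ± 0.32, adjusted p = 0.0261) and above RG3039 (6.74 ± 0.32, adjusted p = 4.23e-05). GATA2 was at 2611 and 2581 with decitabine and 915 and 829.9 with RG3039, and the difference of the combination was 0.13 ± 0.17 from the first (adjusted p = 0.703) and 1.71 ± 0.17 from the second (adjusted p = 0.00204). IGFBP7 stood at 1457 and 942 with decitabine and 15.3 and 19.4 with RG3039, and the combination differed from the first by -6.13 ± 0.34 (adjusted p = 0.000191) and from the second by -0.12 ± 0.34 (adjusted p = 0.896). FLI1 was at 1462 and 1262 under decitabine and at 88.6 and 148 under RG3039, with differences of -2.85 ± 0.32 and 0.70 ± 0.32 (adjusted p = 0.00150 and 0.287). CDA was at 705 and 844 under decitabine and at 2082 and 2353 under RG3039, with differences of 2.17 ± 0.19 and 0.65 ± 0.19 (adjusted p = 0.000829 and 0.106). CTSG rose with decitabine, to 6653 and 8546 (adjusted p = 0.0406), and fell with RG3039, to 999 and 1203 (adjusted p = 0.00149), and the combination differed from decitabine by -2.57 ± 0.21 (adjusted p = 0.000797). The call of PNMA5 against decitabine was lost without any 1 of the decitabine and combination libraries (adjusted p up to 0.170). The rise of CTSG with decitabine held without DMSO replicate 1 and was lost without each of the other 7 libraries (up to 0.191). The other calls against a single drug in this paragraph held whichever library was left out. A p above the threshold does not show that 2 groups are alike.

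The MYC and ribosome biogenesis list was also set against each single drug. Against decitabine 23 of the 57 were called lower and 0 higher, with a median of -0.60, and against RG3039 14 and 0, with a median of -0.69. Among all genes 3.39% and 0.787% were called lower in these comparisons. The medians of decitabine and of RG3039 against DMSO were -0.49 and -0.48. The 23 became 4 without either combination library, 6 without decitabine replicate 1 and 5 without decitabine replicate 2. The 14 became 0 without combination replicate 1 or RG3039 replicate 1, 1 without combination replicate 2 or RG3039 replicate 2, 9 and 6 without decitabine replicates 1 and 2, and 21 without DMSO replicate 1. NOP16 stood at 1888 and 1616 with decitabine and 1947 and 1736 with RG3039, and the combination differed from them by -1.30 ± 0.16 (adjusted p = 0.00249) and -1.37 ± 0.16 (adjusted p = 0.00582). MYC stood at 1667 and 959 under decitabine and at 1721 and 1062 under RG3039, with differences of -1.17 ± 0.29 (adjusted p = 0.0423) and -1.27 ± 0.29 (adjusted p = 0.0575), the second short of the threshold and the first lost without either combination library, either DMSO library or decitabine replicate 1 (up to 0.226). The call of NOP16 against RG3039 was lost without combination replicate 1 or RG3039 replicate 1 (up to 0.0913). Of 77 myeloid maturation markers 27 were called higher and 1 lower against decitabine, with a median of 0.79. Against RG3039 the calls were 12 and 0, with a median of 0.59. Among all genes 3.94% were called higher against decitabine and 1.49% against RG3039. The 27 became 15 without either combination library and 16 without decitabine replicate 1, and the 12 became 0 and 1 without combination replicates 1 and 2 and 2 and 5 without RG3039 replicates 1 and 2. The 36 cancer-testis genes tested had 0 calls against decitabine by limma (2 higher and 3 lower at an unadjusted p under 0.05). Against RG3039 8 were called higher, where 1.49% of all genes were. The medians were -0.21 and 0.60, and the limit set by the filter on low values applies here too. The 8 became 1 without either combination library, and 4 and 5 without RG3039 replicates 1 and 2.

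**Figure D4:**
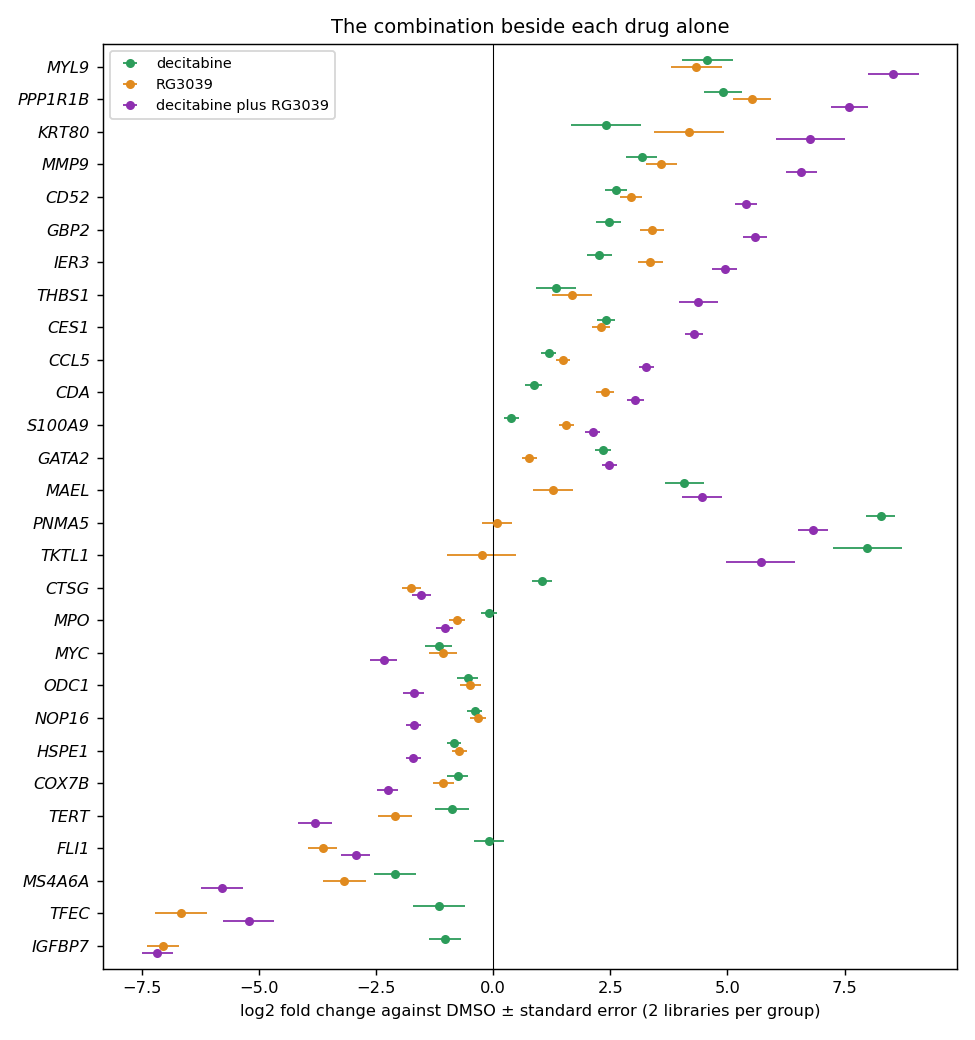
Log2 fold change against DMSO (horizontal axis) with its standard error for named genes in the decitabine, RG3039 and combination groups, each with 2 libraries. MYL9 lies furthest right with both drugs, at 8.54, PNMA5 lies right with decitabine and with both, and IGFBP7 lies left with RG3039 and with both. The fitted change of a gene near 0 in DMSO depends on the 1 added before taking logarithms.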

How the data were processed

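Per the labels' protocols, RNA of 8 HL-60 libraries (DMSO, decitabine, RG3039 and both drugs, 2 each) was made into QuantSeq 3′ FWD libraries and read single-end at 50 bp on a HiSeq 4000. The authors deposited 1 signal value for each gene and library, a read count that they had normalised. Salmon 1.2.1, STAR, featureCounts, limma, DESeq2 and the build hg38 are listed per the submitters' processing notes. Which of them made the values, and whether strand was used, is not given in the sources used. Low values were whole multiples of 1 read, within 0.02, in 97.5% to 98.2% of cases for genes with 1 annotated transcript, but in 33.1% to 43.4% for genes with 5 or more. Whole reads could therefore not be recovered, and no count test was run. The estimated depth, 20700000 to 40900000 reads, is the total divided by the value of 1 read. A log2 fold change had a median standard error of 0.32.

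Genes averaging at least 10 entered the test on log2(value + 1), a scale that understates the change of low genes. The model had a mean per group over all 8 libraries (limma 3.58.1 in R 4.3.3, eBayes with trend, 4 residual and 5.51 prior degrees of freedom). Tests were two-sided with Benjamini-Hochberg adjustment over all 17534 genes, and a gene was called at an adjusted p under 0.05. The script was tested on simulated data. Fold changes are given ± standard error. Coordinates are from GENCODE 29 on GRCh38, and start windows from RefSeq (GRCh38.p14).

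The members and the 36 gene lists (1611 symbols, 0 unmatched) were chosen with earlier results of these data known. Genes named by rule are first the 15 with the largest change each way, the 10 with the smallest p and the 6 most abundant each way. These average at least 20, have groups that do not overlap and keep the call whichever library is left out. The 4 tested members with the smallest p in each list were taken without these conditions. DNMT1, UHRF1, DNMT3A, DNMT3B, DCPS, CDA, DCK, MYC and CDKN1A were added, and X-inactivation and Y-linked genes left out. The rule gives 186 genes, of which 182 were called and not all are described; some are not reported here. Other list members named, and the genes set beside the single drugs, were chosen after their values were seen. Alternatives tried were other scalings, pseudocounts and filters, other eBayes settings, only the groups compared, a replicate block, a 2-fold minimum and the omission of each library.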

Additional observations from a re-analysis of the deposited data

How the results depend on the processing

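The count of genes called between the combination and DMSO stayed within 1.5 times of 4221 under the other scalings, pseudocounts and filters, the other eBayes settings and with only the groups compared. Requiring a 2-fold change as well gave 2620 (1150 lower), and leaving out 1 library gave 2133 to 4075, where the spread of a group of 1 is taken from the other groups. For higher calls that range was 1038 to 1948, and for lower calls 1095 to 2127. Without the mean-variance trend 1288 were lower. Against decitabine the count was 432 without the trend, 818 with a 2-fold change and 305 to 1391 without 1 library. Against RG3039 it was 213 when all genes were tested, 147 without the trend, 688 with the replicate block and 21 to 454 without 1 library. With the replicate number as a block 4619 genes were called against DMSO, 2151 higher and 2468 lower. Deviations of same-numbered DMSO and combination libraries correlated at 0.161 and those of the other pairs of groups at -0.077 to 0.117, and the labels do not say that a number marks a shared batch, so the numbers were not taken to pair the libraries. DNMT3A, not called, ranged from -0.069 to 0.19 when 1 library was left out, with the sign changed without DMSO replicate 2, and DNMT3B, not called, from -0.21 to 0.24. DNMT3B changed sign with quantile normalisation (-0.26), without DMSO replicate 2 (-0.21) and without combination replicate 1 (-0.18). Of the 182 called genes within the naming rule, 178 to 182 kept the call under each refitted alternative other than a minimum mean of 50, which left 173 to test, all 173 kept, and 162 also reached a 2-fold change. DCK lost its call under each other scaling (adjusted p 0.0529 to 0.115, limma). The cause of these changes was not tested. The planned count test was not run, since whole reads could not be recovered.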
